A study of Mus musculus with 2 samples.

Results

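The lysosomal cathepsins and their cystatin inhibitors were followed through mouse bone marrow as 8 cathepsins (Ctsb, Ctsc, Ctsd, Ctsh, Ctsl, Ctss, Ctsz and Ctse) and 2 cystatins (Cst3 and Cst7). They were chosen by name and make up 10 of the 27998 genes in each of 2 single-cell RNA libraries. The study asks about marrow progenitors with erythroid and mast cell potential. One library came from CD45+ cells that expressed GFP in Car1-GFP reporter mice, in which GFP follows the carbonic anhydrase gene Car1, and held 2400 cells after filtering. The other, called marrow here, came from CD45+ CD3- Ly6G- cells of C57BL/6 mice and held 6268 cells. All mice were naive and on the C57BL/6 background, and each library pooled 3 mice, so there was 1 library per group. The reporter construct, age and sex are not given in the sources used here.

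Cathepsins are proteases that work mostly in the acid interior of lysosomes, where they digest proteins taken up by the cell and proteins of the cell itself. Cathepsins B, C, H, L, S and Z are cysteine proteases, and cathepsins D and E are aspartic proteases. In blood-forming tissue they also trim antigens for presentation and activate the serine proteases of granules. Cystatins bind and block cysteine cathepsins: cystatin C (Cst3) is secreted by many cell types, and cystatin F (Cst7) is made in immune cells.

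In these data the members parted into distinct patterns. Ctsb, Ctsc, Ctsh, Ctss, Ctsz and Cst3 were high in monocyte-like marrow cells. At a size of 2-fold, Ctsb, Ctsh, Ctss and Ctsz were also higher in plasmacytoid dendritic-like cells, and Cst3 in conventional dendritic-like cells. Most Ctsl UMIs (transcript molecules counted) lay in plasmacytoid dendritic-like cells, and most Ctse UMIs in erythroid-like cells. Among Car1-GFP cells, Ctse, Ctsb and Ctsd were higher in cells with more globin RNA, Ctsc, Cst7 and Cst3 were lower there, and Ctss and Ctsh were close to absent throughout.

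Many lysosomal genes carry the sequence CACGTG near their start, to which the transcription factor TFEB and its relatives bind. RefSeq promoter windows (GRCm38.p6, 250 bases before to 50 after the start) were at hand for 7 of the 10 members, not for Ctsb, Ctsh and Ctse. CACGTG, which reads the same on both strands, occurred in 2 of those 7, Ctsd and Ctsl, and in 7.15% of all 32851 windows. The matches are shown here because Ctsd was one of the members that were higher with globin share; capitals mark CACGTG, and each line runs 5′ to 3′ on the gene's strand.
Ctsd, 245 bases before the start, chr7:142388055-142388077, minus strand: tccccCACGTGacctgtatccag
Ctsd, 98 bases before the start, chr7:142387908-142387937, minus strand: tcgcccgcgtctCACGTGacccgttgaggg
Ctsl, 236 bases before the start, chr13:64370739-64370768, minus strand: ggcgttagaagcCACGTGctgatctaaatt
The second Ctsd match also spells the longer form TCACGTGA, found in 0.974% of windows and overlapping the CACGTG it contains. That match and the Ctsl match meet exons of their own gene in the GENCODE M21 annotation, which places the starts of some transcripts farther upstream. Both therefore lie inside the gene limits given below, and their distances are counted from the RefSeq start. The erythroid motif GATAAG, searched on both strands, was in none of the 7 windows and in 7.44% of all windows. These are letter matches only.

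The Car1-GFP cells had a median of 15512.5 UMIs and the marrow cells 1031, with 42795219 and 8303633 UMIs in all. Marrow cells were grouped into 15 clusters without the members or other lysosomal genes, and 14 clusters took 1 of 11 class names from marker genes. A cluster of 36 cells led by Ms4a4c, Cd74 and H2-Ab1 stayed unnamed. Gate markers were read from the counts: 98.7% of Car1-GFP cells and 4.85% of marrow cells had a Car1 UMI, and Ptprc, which encodes CD45, had one in 19.7% and 31.1%. Despite the Ly6G- gate, 33.4% of marrow cells fell in the neutrophil-like class, and Ly6g itself was detected in 8.98%. Of the barcodes, 14 occurred in both libraries. Levels are given as UMIs per 1000000 UMIs (CPM) over the summed cells of a class, with 95% Poisson intervals in brackets after the value. These and all later intervals describe the error of counting alone and say nothing of mice or preparations, and with 1 library per group no test between groups was possible.

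**Figure D1:**
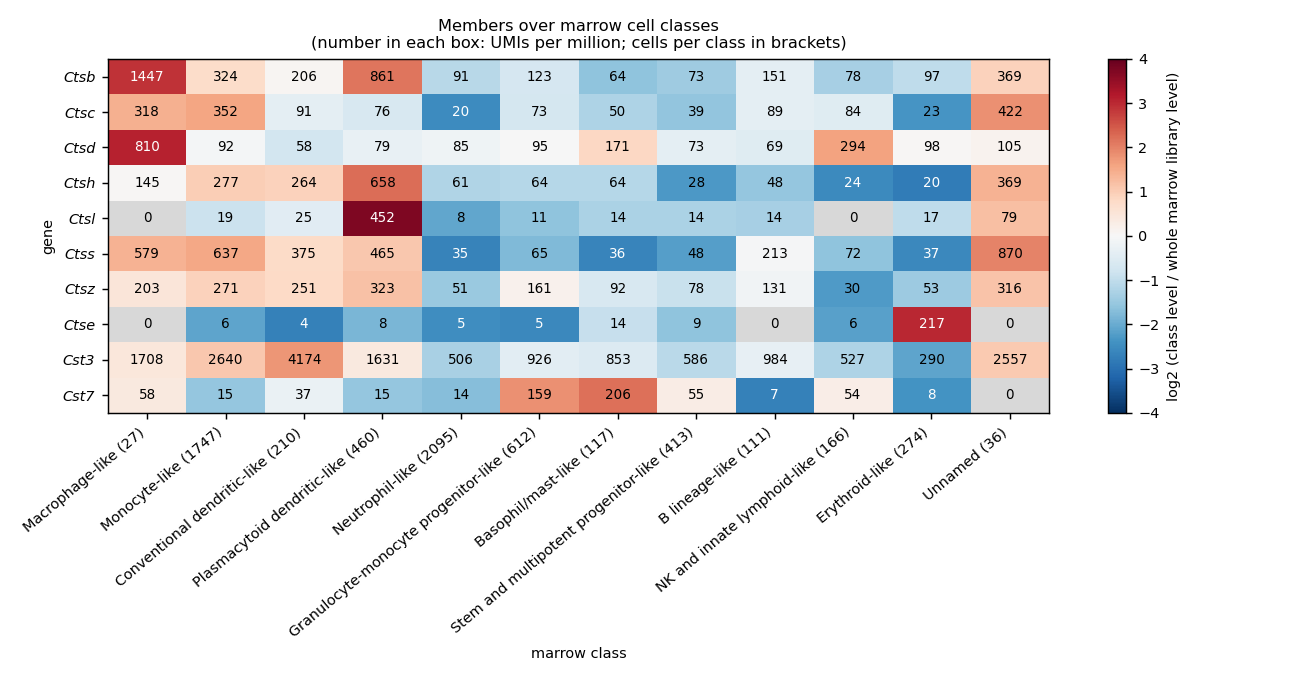
Levels of the 10 members (down) in 11 marrow classes and the unnamed cluster (across); numbers in the boxes are CPM, and colour is the log2 of the class level over the whole marrow library, with grey for 0 UMIs. Ctsl is darkest in the plasmacytoid dendritic-like class at 452 CPM and Ctse in the erythroid-like class at 217 CPM.

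Over marrow classes, the endopeptidases differed in where they were highest. Cathepsin B (Ctsb, ENSMUSG00000021939, mm10 chromosome 14, 63122462 to 63145923, plus strand), a broadly active protease that also trims chain ends, was 1447 CPM (1074 to 1908) in macrophage-like cells. It was 861 CPM (772 to 958) in plasmacytoid dendritic-like cells, 324 CPM in monocyte-like cells and 206 CPM in conventional dendritic-like cells, and between 64 and 151 CPM in every other named class. The first 3 classes in this order each differed from the next beyond counting error, and conventional dendritic-like cells did not differ from B lineage-like cells, the next in order. The macrophage-like class had 27 cells and 50 Ctsb UMIs, and its Ctsb ratio over all other marrow cells, 2.92, was 1.55 with doublets kept and 1.34 in cells of at least 1000 UMIs. Neutrophil transcripts were also plentiful in this class, as given below.

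Cathepsin L (Ctsl, ENSMUSG00000021477, chromosome 13, 64359337 to 64370890, minus strand), an endopeptidase of antigen processing in several cell types, was 452 CPM (388 to 524) in plasmacytoid dendritic-like cells. No other named class was above 25 CPM. These 460 cells held 178 of the library's 284 Ctsl UMIs, or 62.7%, and 4.74% of all its UMIs. The log2 ratio over all other marrow cells was 5.08, and 3.51 in cells of at least 1000 UMIs. The conventional dendritic-like class came next at 24.7 CPM, on 6 UMIs, and lay 4.19 below on the log2 scale (3.04 to 5.66).

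Cathepsin S (Ctss, ENSMUSG00000038642, chromosome 3, 95526786 to 95556403, plus strand) cuts the invariant chain that blocks MHC class II molecules. It was 637 CPM (602 to 674) in monocyte-like, 579 in macrophage-like, 465 in plasmacytoid dendritic-like and 375 CPM in conventional dendritic-like cells. Neighbours among these 4 did not differ beyond counting error, the macrophage-like value resting on 20 UMIs. The monocyte-like interval nevertheless lay above those of plasmacytoid (400 to 537) and conventional dendritic-like cells (302 to 460). B lineage-like cells followed at 213 CPM, beyond counting error below the conventional dendritic-like class, and every other named class was at 72 CPM or less.

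The exopeptidases shared part of this order. Cathepsin C (Ctsc, ENSMUSG00000030560, chromosome 7, 88278085 to 88310888, plus strand), which removes dipeptides and thereby activates granule serine proteases, was 352 CPM (326 to 379) in monocyte-like cells. It was 318 CPM in macrophage-like cells, on 11 UMIs, which did not differ beyond counting error, and 91 CPM or less in the other named classes. In granulocyte-monocyte progenitor-like cells, the class rich in the elastase and myeloperoxidase genes, it was 73 CPM. Monocyte-like cells held 69.1% of its marrow UMIs.

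Cathepsin H (Ctsh, ENSMUSG00000032359, chromosome 9, 90054152 to 90076089, plus strand), an aminopeptidase, was 658 CPM (580 to 743) in plasmacytoid dendritic-like cells, 277 in monocyte-like and 264 CPM in conventional dendritic-like cells. The first of these exceeded the second by 1.25 on the log2 scale (1.03 to 1.47), while the other pair did not differ beyond counting error. Cathepsin Z (Ctsz, ENSMUSG00000016256, chromosome 2, 174427493 to 174439039, minus strand), a carboxypeptidase, was flatter. It was 323, 271, 251, 203 and 161 CPM in plasmacytoid dendritic-like, monocyte-like, conventional dendritic-like, macrophage-like and granulocyte-monocyte progenitor-like cells, and no neighbours in its whole order differed beyond counting error. Its log2 ratio in plasmacytoid dendritic-like cells over all other marrow cells was 1.26, and 0.48, with an interval that held 0, in cells of at least 1000 UMIs.

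The aspartic cathepsins followed other orders. Cathepsin D (Ctsd, ENSMUSG00000007891, chromosome 7, 142375911 to 142388038, minus strand), a main digestive protease of lysosomes, was 810 CPM (539 to 1171) in macrophage-like cells, on 28 UMIs. Its log2 ratio over all other marrow cells was 3.13 there, against 1.43 with doublets kept and 0.69, with an interval that held 0, in cells of at least 1000 UMIs; in both settings the class held more cells. NK and innate lymphoid-like cells were next at 294 CPM (217 to 388), then basophil/mast-like cells at 171 CPM (109 to 254). Monocyte-like cells were at 92 CPM, within the 58 to 98 CPM that covered all remaining classes. Neutrophil-like cells, at 85 CPM, lay in the same range.

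Cathepsin E (Ctse, ENSMUSG00000004552, chromosome 1, 131638306 to 131675505, plus strand), an aspartic protease found in endosomes and, in humans, in red cell membranes, was 217 CPM (186 to 251) in erythroid-like cells. The next class, basophil/mast-like cells, was at 14.2 CPM on 2 UMIs. The erythroid-like class, which carried both late erythroid and erythroid progenitor markers, held 181 of 223 Ctse UMIs, or 81.2%. Its log2 ratio over all other marrow cells was 5.27. Macrophage-like and B lineage-like cells had 0 Ctse UMIs.

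The inhibitors differed from each other. Cst3 (ENSMUSG00000027447, chromosome 2, 148871722 to 148875692, minus strand) was 4174 CPM (3921 to 4439) in conventional dendritic-like cells, 2640 CPM (2568 to 2714) in monocyte-like cells, 1708 in macrophage-like and 1631 CPM in plasmacytoid dendritic-like cells. The first 3 classes differed beyond counting error, and the last of these did not differ from plasmacytoid dendritic-like cells. Cst7 (ENSMUSG00000068129, chromosome 2, 150570415 to 150578944, plus strand) was 206 CPM (138 to 296) in basophil/mast-like cells and 159 CPM (139 to 182) in granulocyte-monocyte progenitor-like cells, which did not differ beyond counting error. It was 55.1 CPM in stem and multipotent progenitor-like and 53.9 CPM in NK and innate lymphoid-like cells, and 15.1 CPM in monocyte-like cells, where Cst3 was high. Granulocyte-monocyte progenitor-like cells held 57.5% of its UMIs.

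Counted by class at a size of 2-fold against all other marrow cells, 6 members were higher and 3 lower in monocyte-like cells, where 10.0% of all 10429 measured genes were higher and 12.0% lower. The 6 were Ctsb, Ctsc, Ctsh, Ctss, Ctsz and Cst3, and the 3 were Ctsl, Ctse and Cst7. Their median log2 ratio was 1.20, against 0.08 over all measured genes. In plasmacytoid dendritic-like cells 5 members were higher (Ctsb, Ctsh, Ctsl, Ctss and Ctsz; 15.5% of all genes) and 2 lower (11.6%). Macrophage-like cells had 4 higher members, Ctsb, Ctsc, Ctsd and Ctss (21.3% of all genes), and 0 lower (3.49%). The unnamed cluster had 6 higher (17.9%) and 0 lower (2.98%). Conventional dendritic-like cells had 1 higher member, Cst3 (11.7%), and 1 lower, Ctse (8.23%).

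The members were mostly low in granulocytic, erythroid and early cells. In neutrophil-like cells 9 of 10 members were at least 2-fold lower, all but Ctsd, where 45.8% of all genes were lower as well, and 0 were higher (4.43% of genes); the median was -1.96 against -0.89. In erythroid-like cells 8 were lower (22.4% of all genes) and 1, Ctse, was higher (17.2%), with a median of -1.88 against 0.10. Stem and multipotent progenitor-like cells had 7 lower (10.5%) and 0 higher members (15.3%), and NK and innate lymphoid-like cells 6 lower (10.5%) and 1 higher, Ctsd (11.9%). Cst7 was the 1 higher member both in basophil/mast-like cells (13.4% of genes higher), where 5 were lower (8.86%), and in granulocyte-monocyte progenitor-like cells (5.59%), where 4 were lower (13.9%). B lineage-like cells had 0 higher (13.3%) and 3 lower members (7.81%).

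Some of the low values lay near those of transcripts that mark other classes. In erythroid-like cells, the neutrophil transcripts S100a8, S100a9, Ngp and Camp stood at 12.1 to 12.9% of their library-wide CPM, and Ctsh at 14.5%, Ctss at 16.8%, Cst7 at 18.9% and Ctsc at 19.3% of theirs. Other transcripts spread more widely in erythroid-like cells: Cd74 stood at 6.72%, Siglech at 15.7% and Mpo at 18.0%. In neutrophil-like cells, the plasmacytoid marker Siglech stood at 14.2%, Cd74 at 10.7% and Hbb-bs at 12.5%, and Ctss at 15.6%, Ctsc at 17.4% and Ctse at 17.9%. Elane and Mpo stood higher there, at 40.6% and 22.9%. Whether such values are expression in those classes or RNA from other cells was not tested. Ctsd, by contrast, stood at 103% of its library-wide level in erythroid-like cells. The same neutrophil transcripts stood at 91.9 to 105% of their library-wide CPM in macrophage-like cells, where Ctsb and Ctsd were highest. They stood at 43.5 to 48.0% in B lineage-like and 43.7 to 49.0% in NK and innate lymphoid-like cells. The part of RNA from other cells in the member levels of these classes was not tested.

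The monocyte-like and neutrophil-like classes were made of several large clusters, which were set against each other after their values were seen. Monocyte-like cells led by Gngt2 and Clec4a3 (810 cells) had 1167 CPM of Ctss, and those led by Fn1 and F13a1 (937 cells) had 337 CPM. The log2 ratio was 1.79 (1.62 to 1.97). Ctss was the 1 of 9 measured members at least 2-fold higher in the Gngt2 and Clec4a3 cells, against 6.84% of all measured genes. Cst7 was the 1 that was lower, at 7.19 against 19.6 CPM (10.3% of genes), on 5 and 24 UMIs. Its log2 ratio was -1.44 (-3.19 to -0.03). Ctsb (466 against 243 CPM), Ctsh, Ctsc and Cst3 were also higher there by less than 2-fold, at log2 ratios of 0.94, 0.61, 0.58 and 0.38, all with intervals above 0. Among neutrophil-like cells, Ctsd was 179 CPM in the cluster led by Mmp8 and Retnlg (311 cells) and 65.7 CPM in the cluster led by Fcnb and Cebpe (1016 cells), a log2 ratio of 1.45 (0.92 to 1.96). It was the 1 of 8 measured members at least 2-fold higher, against 8.39% of genes. Cst7 was the 1 at least 2-fold lower, at 7.33 against 19.1 CPM, a log2 ratio of -1.38, on 2 and 27 UMIs, against 23.8% of genes. The intervals of all members but Ctsd held 0. A further neutrophil-like cluster of 768 cells, with 85.9 CPM of Ctsd, was not part of this comparison.

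**Figure D2:**
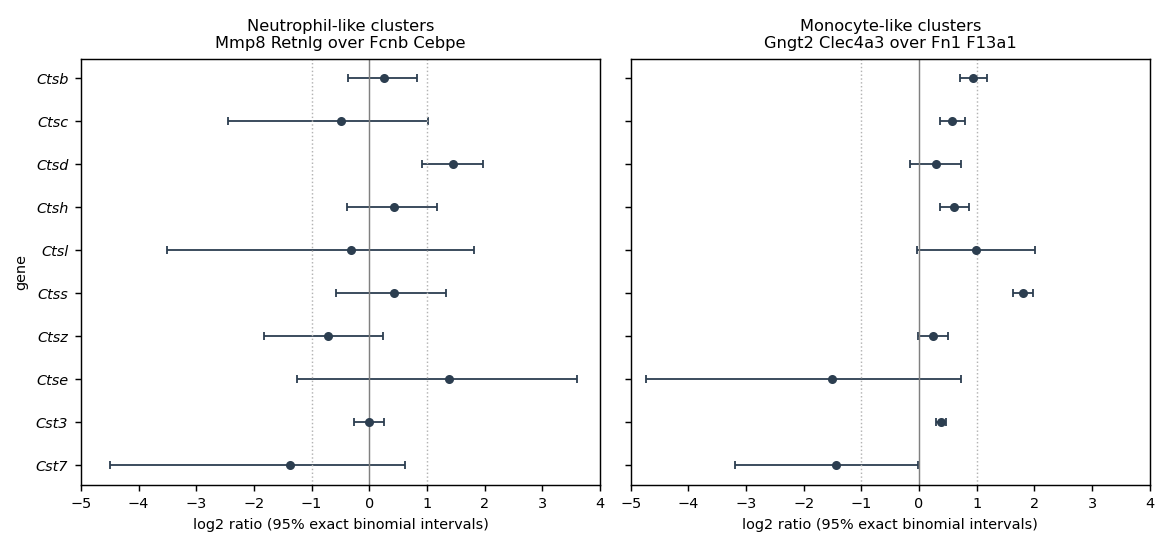
Log2 ratios of each member between clusters of 1 class, with 95% exact binomial intervals, in neutrophil-like cells (left) and monocyte-like cells (right); dotted lines mark 2-fold. Ctsd at 1.45 is clear of 0 on the left, and Ctss at 1.79 is farthest from 0 on the right.

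The genes most alike to each member over the 11 classes were listed from 8768 candidates by Pearson correlation of log2(CPM + 10). Classes share 1 library, and several hold few UMIs, so these values are descriptions. Ctss was most alike to Psap and Tpd52 (both r = 0.98), Ctsb to Eepd1 (0.97) and Cd68 (0.94), and Ctsc to Trio (0.96) and Lamp1 (0.95). Ctsh was most alike to Cdipt (0.97) and Pld4 (0.95), Ctsl to Smim5 (0.96) and Lrp8 (0.94), and Ctsz to Ly86 (0.96) and Tbl1xr1 (0.91). Ctsd was most alike to Atpaf1 and Smg8 (both 0.93), and Ctse to Spire1 (0.98) and Smim1 (0.97). Cst3 was most alike to Tbl1xr1 (0.94) and Fam105a (0.92), and Cst7 to Impad1 (0.88) and Atp8b4 (0.86). Among the members themselves, Ctsh and Ctsz had the highest correlation (0.88) and Ctse and Cst3 the lowest (-0.55).

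The Car1-GFP library was then set against the marrow library. Ctse was 222 CPM (218 to 227) in Car1-GFP cells and 26.9 CPM (23.4 to 30.6) in marrow cells, 8.27-fold higher. Ctsd was 167 CPM in Car1-GFP cells and 95.9 CPM in marrow cells, a log2 ratio of 0.80 (0.70 to 0.91). No other member was higher in the Car1-GFP library when scaled by total UMIs. A library-wide level mixes how many cells of a class were sorted with how much RNA each holds, and these cannot be told apart in it.

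Ctss and Ctsh were nearly missing from the Car1-GFP library, and Ctsc was low there. Ctss was 1.14 CPM (0.85 to 1.51) in Car1-GFP cells, from 49 UMIs, and 221 CPM (211 to 231) in marrow cells, a log2 ratio of -7.59. Ctsh was 0.911 CPM in Car1-GFP cells, from 39 UMIs, and 140.1 CPM in marrow cells, a log2 ratio of -7.26. Ctsc was 12.1 CPM in Car1-GFP cells and 118 CPM in marrow cells, a log2 ratio of -3.29. For all 3 the intervals of the levels lie far apart.

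Of the inhibitors, Cst3 was 186 CPM in Car1-GFP cells and 1240.5 CPM in marrow cells, a log2 ratio of -2.74 (-2.78 to -2.69), and Cst7 was 20.6 and 44.4 CPM, a ratio of -1.11 (-1.29 to -0.93). Ctsb (101 and 197 CPM) and Ctsz (76.6 and 144 CPM) were lower in Car1-GFP cells by just under 2-fold, at -0.97 and -0.91. Ctsl was 27.3 CPM in Car1-GFP cells and 34.2 CPM in marrow cells, a ratio of -0.33 that turned to 0.06 with TMM or DESeq2 scaling and to 0.84 in cells of at least 1000 UMIs.

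In all, 1 of the 10 members lay past 2-fold on the higher side in the Car1-GFP library and 5 on the lower side, where 22.2% and 32.7% of all 12076 measured genes were. The members' median log2 ratio was -1.04, against -0.23 over all measured genes. TMM and DESeq2 scaling raised every ratio by 0.39 and 0.38, and under either 2 members were higher, with Ctsd at 1.19, and 4 lower, with Cst7 at -0.72. With every cell weighted equally, the Cst7 ratio was -0.13.

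**Figure D3:**
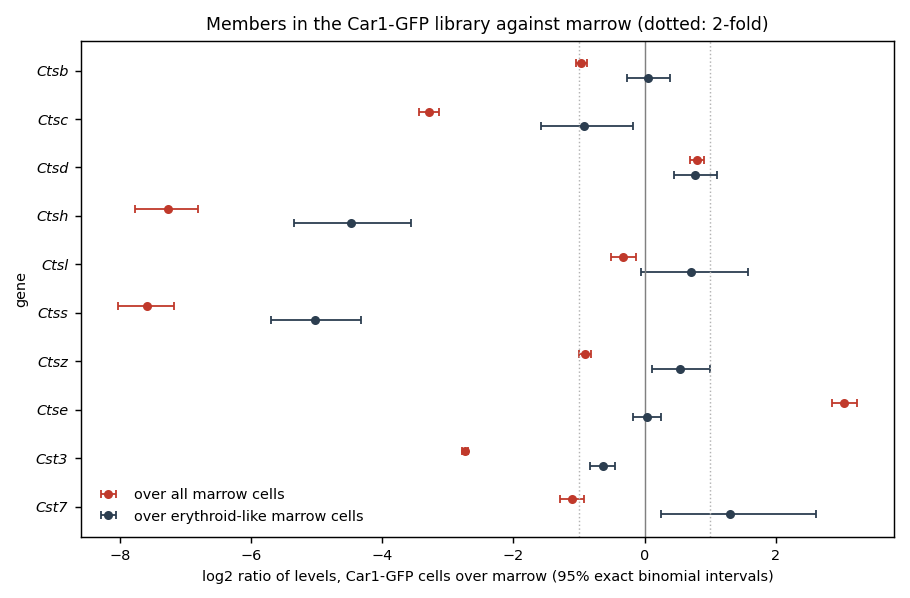
Log2 ratio of each member's level in Car1-GFP cells over all marrow cells (red) and over the erythroid-like marrow cells (dark blue), with 95% exact binomial intervals; dotted lines mark 2-fold. Ctse is at 3.05 against all marrow cells and at 0.03 against erythroid-like ones, while Ctsh and Ctss lie far to the left in both.

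Against the 274 erythroid-like marrow cells most members lay within 2-fold. Ctse was 222 CPM in Car1-GFP cells and 217 CPM in erythroid-like marrow cells, with a log2 ratio of 0.03 (-0.18 to 0.25), and Ctsb was 101 and 97.1 CPM, a ratio of 0.05 (-0.27 to 0.39). Both intervals lie inside 2-fold, though both signs turned in some alternatives. Ctsd was higher in Car1-GFP cells (167 against 98.3 CPM, 0.77) and Cst3 lower (186 against 290.0 CPM, -0.64). Ctsc was 12.1 against 22.8 CPM, a ratio of -0.92 (-1.57 to -0.17). In erythroid-like marrow cells Ctsc stood at 19.3% of its library-wide CPM, on 19 UMIs, and Cst3 at 23.4%. The neutrophil transcripts given above stood at 12.1 to 12.9% there. The part of RNA from other cells in the Ctsc and Cst3 ratios was not tested.

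Of 10 members, 1 was at least 2-fold higher than in erythroid-like marrow cells (12.5% of all 11087 measured genes) and 2 lower (27.4%). The higher member was Cst7, at 20.6 CPM in Car1-GFP cells and 8.39 CPM in erythroid-like marrow cells, the second on 7 UMIs. That second value stood at 18.9% of the library-wide CPM, and the part of RNA from other cells in it was not tested. When both sides were compared within the same ranges of globin share the Cst7 ratio was -0.49, and no member was higher and 4 were lower. These values are plain means of the log2 ratios of the ranges. At 10% or more, Ctss and Ctsh had 0 Car1-GFP UMIs and 1 marrow UMI, and the floor of 3 UMIs was used. Whether cells within the same limits of globin share were otherwise alike was not tested. In the ranges that gave a Cst7 ratio, 0.3 to 1% and 3 to 10%, it was 0.39 (-1.46 to 3.44) and -1.37 (-3.37 to 1.74). Each rests on 2 marrow UMIs, so the sign of the Cst7 ratio is not settled. Among the lower members, Ctsc had 3, 2 and 3 marrow UMIs in the ranges that gave its ratio. With TMM scaling, which raised the ratios over all erythroid-like marrow cells by 0.45, 3 members were higher: Ctsd, Ctsl and Cst7.

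The lower members were Ctss, at 1.14 CPM in Car1-GFP cells and 37.1 CPM in erythroid-like marrow cells (log2 ratio -5.02), and Ctsh, at 0.911 and 20.4 CPM (-4.48). The erythroid-like marrow values of both rest on 31 and 17 UMIs and, as given above, stand near the level at which neutrophil transcripts were found in those cells. Among Car1-GFP cells 40.6% had an S100a8 UMI, and among marrow cells 99.9%. The part of RNA from other cells in these ratios was not tested.

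The globin share, the percent of a cell's UMIs from globin genes, was used to order Car1-GFP cells, since globin RNA accumulates as red cells mature. Its median was 0.565%, and it ran between 0.211% and 54.0%. Every Car1-GFP cell had a UMI of Hbb-bs, and 2020 cells, or 84.2%, lay in the narrow range of 0.3 to 1%. Another 196 cells lay at 1 to 3%, 136 at 3 to 10% and 46 at 10% or more, and the 2 cells under 0.3% are not described. Along globin share, CPM is taken over non-globin UMIs, so that globin itself does not dilute the levels. The band 3 anion exchanger gene Slc4a1 was 11.1, 61.0, 193 and 357 CPM in these 4 bins and the stem and mast cell factor Gata2 was 62.7, 18.1, 19.3 and 15.3.

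**Figure D4:**
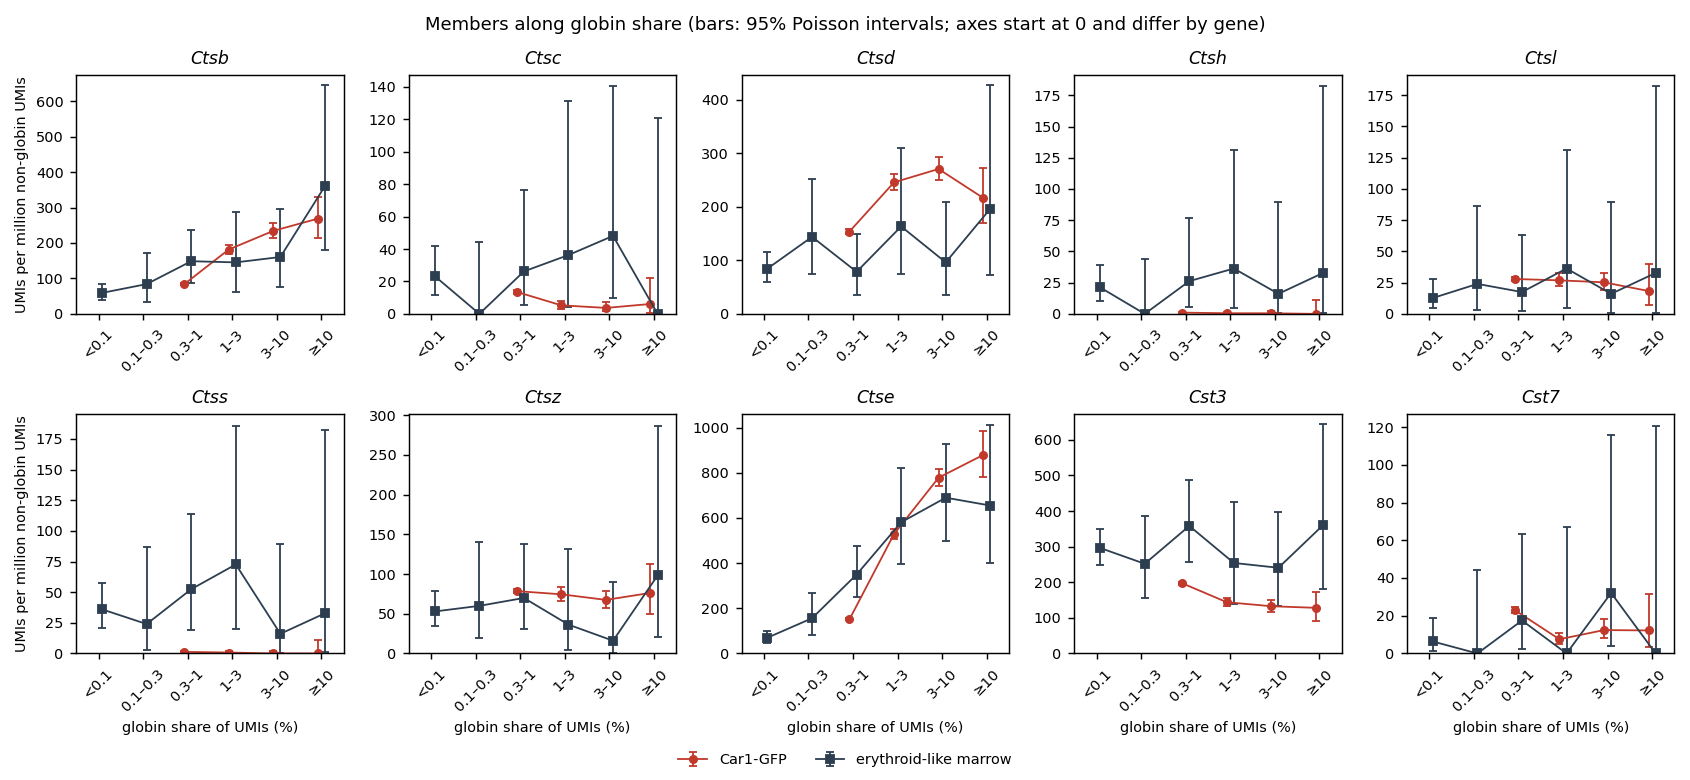
Level of each member (1 panel each, CPM over non-globin UMIs, axes from 0) in bins of globin share in Car1-GFP cells (red circles) and erythroid-like marrow cells (dark squares), with 95% Poisson intervals; bins of at least 20 cells are drawn. Ctse and Ctsb are higher at the right than at the left in both libraries, though not at every step in erythroid-like marrow cells. Ctsh and Ctss lie near 0 in Car1-GFP cells.

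Ctse was 151, 529, 778 and 879 CPM from the lowest to the highest of these bins. Ctsb was 83.3, 181, 234 and 269 CPM, also higher in each bin than in the one before. Ctsd was 154, 246, 271 and 217 CPM, with the highest value at 3 to 10%. These 3 members are the ones that were higher at high globin share.

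Ctsc was 13.6, 5.27, 3.67 and 6.10 CPM in the same order, the last 2 values on 8 and 2 UMIs. Cst7 was 22.9, 7.53, 12.4 and 12.2 CPM, and Cst3 was 197, 144, 133 and 128 CPM. In all 3 the widest step lay between the first and second bins. Most marker lists of other cells also fell there. The summed level of 12 stem and multipotent progenitor markers was 103, 36.1, 36.3 and 54.9 CPM, with 11, 8, 8 and 6 detected. The 8 granulocyte-monocyte progenitor markers summed to 441, 304, 249.7 and 330 CPM, with 8, 7, 7 and 6 detected, and the 10 basophil/mast markers to 13.6, 7.28, 7.80 and 12.2 CPM, with 9, 8, 6 and 1 detected. Neutrophil markers fell there and then rose, at 184, 74.3, 279 and 116 CPM. Between the first and second bins monocyte markers went from 17.9 to 9.03 CPM and plasmacytoid dendritic markers from 92.9 to 46.4. NK and innate lymphoid markers went from 84.1 to 32.4 CPM, and conventional dendritic markers from 43.1 to 27.8. Macrophage markers rose there instead, at 45.5, 59.0, 47.7 and 36.6 CPM over the bins, and so did T cell markers, from 0.168 to 0.251 CPM. The bins held 35785030, 3985771, 2178847 and 327645 non-globin UMIs, so the numbers of markers detected cannot be compared between them. The part of these cells in the member values was not tested. Ctsl (27.9, 26.8, 25.2 and 18.3 CPM) and Ctsz (78.5, 74.5, 67.5 and 76.3 CPM) stayed nearly level. Ctsh had 36, 2, 1 and 0 UMIs and Ctss 46, 3, 0 and 0 UMIs in the 4 bins, where a count of 0 allows up to 3 UMIs.

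Cells at 3 to 10% were compared with cells at 0.3 to 1%. The log2 ratio was 2.36 (2.29 to 2.44) for Ctse, 1.49 (1.35 to 1.63) for Ctsb and 0.82 (0.69 to 0.94) for Ctsd. It was -1.88 (-3.10 to -0.89) for Ctsc, -0.89 (-1.50 to -0.34) for Cst7 and -0.57 (-0.75 to -0.40) for Cst3. The intervals of Ctsl (-0.15) and Ctsz (-0.22) held 0, and so did that of Ctsh (-1.13, on 1 UMI in the high cells). For Ctss no ratio was formed, as the floor of 3 UMIs in the high cells lay above the level of the low cells.

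At 2-fold, 2 of 10 members were higher, Ctse and Ctsb, against 6.24% of all 10894 measured genes, and 2 were lower, Ctsc and Ctsh, against 14.7%. The members' median was -0.22, against -0.18 over all genes. Ctsh dropped from this count when the 24 cells richest in granulocyte markers were left out, and Ctsc did so, at -0.66, when every cell was thinned to 4000 UMIs. Cst7 passed 2-fold, at -1.57, with thinned cells and, at -1.34, with every cell weighted equally. Rank correlation with globin share over the 2400 cells, which differ in depth, was 0.40 for Ctse, 0.26 for Ctsb and 0.20 for Ctsd, and between -0.15 and 0.00 for the others.

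The cells at 10% or more were split at 30% after their values were seen. Ctse was 396 CPM in the 26 cells at 30% or more and 1044 CPM in the 20 cells at 10 to 30%, a log2 ratio of -1.40 (-1.97 to -0.87). Cst3 was 216 and 98.2 CPM, a ratio of 1.14 (0.17 to 2.08), on 18 and 24 UMIs. The cells at 30% or more had a median of 5672 UMIs, against 14793 in those at 10 to 30%. Ctsb (264 and 270.1 CPM) and Ctsd (228 and 213 CPM) did not differ beyond counting error between them.

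Erythroid-like marrow cells gave the same measure in another library, over wider shares and far fewer UMIs. In 6 bins of 119, 26, 40, 25, 32 and 32 cells, low to high, Ctse was 69.8, 156, 350, 581, 690 and 655 CPM. Ctsb was 59.2, 84.0, 149, 145, 160 and 360 CPM. Cells at 10% or more over cells under 0.1% gave a log2 ratio of 3.23 (2.35 to 4.07) for Ctse and 2.60 (1.45 to 3.66) for Ctsb. Ctsd was 197 and 84.6 CPM, a ratio of 1.22 whose interval held 0 (-0.31 to 2.46), on 6 UMIs in the high cells. Of the 5 members measured there, 3 were higher (17.2% of all genes) and none of the 5 was lower (14.2%), the other 2 being Ctsz and Cst3.

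Bins with the same limits did not hold the same Ctse level in both libraries. At 0.3 to 1% it was 151 CPM in Car1-GFP cells and 350 CPM in erythroid-like marrow cells, a log2 ratio of -1.21 (-1.66 to -0.72). At 1 to 3% and above, the intervals of the ratio held 0. The median globin share of erythroid-like marrow cells was 0.208%, and they reached down to 0%, while 0.211% was the lowest share in Car1-GFP cells.

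Clusters of Car1-GFP cells, made from their expression without the members, differed in Cst7. Cst7 was 68.6 CPM (61.1 to 76.9) in the 590 cells led by Vim, Sox4, Nkg7, Gzmb and Gata2, and 44.9 CPM in the 279 cells led by S100a8, Pf4 and Elane. It was between 7.1 and 21.8 CPM in all other clusters of at least 20 cells. Gata2 stood at 199.7 CPM in the first of these clusters, and at 91.0 CPM or less in the others. The first cluster's median globin share, 0.556%, was close to the 0.522 to 0.551% of the clusters with low Cst7 and little globin. Its median depth was 6601.5 UMIs per cell, among the lower ones. In the same clusters with high Cst7, Ctsc was 18.4 and 23.8 CPM and Cst3 223 and 258 CPM. Other clusters reached 23.0 CPM of Ctsc, on 8 UMIs, and 299 CPM of Cst3.

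Ctse was 775 CPM (746 to 805) in the 200 cells led by Slc4a1 and globin genes and 415 CPM in the 216 cells led by Rgcc, Sec14l2 and Trim10, whose median globin share was 1.21%. It was 231 CPM in a cluster of 244 cells with a median globin share of 0.532%, and 87.7 to 156 CPM in the remaining large clusters of like share. Ctsb was 232, 151 and 104 CPM in those 3 clusters and 66.6 to 77.2 CPM in the remaining large ones. In the 24 cells with a median globin share of 51.1%, Ctse was 92.6 CPM of all UMIs, globin included. A cluster of 44 cells with a median depth of 6196.5 UMIs had the highest Ctsd (313 CPM), Ctsz (184 CPM) and Cst3 (299 CPM) of all clusters.

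**Figure D5:**
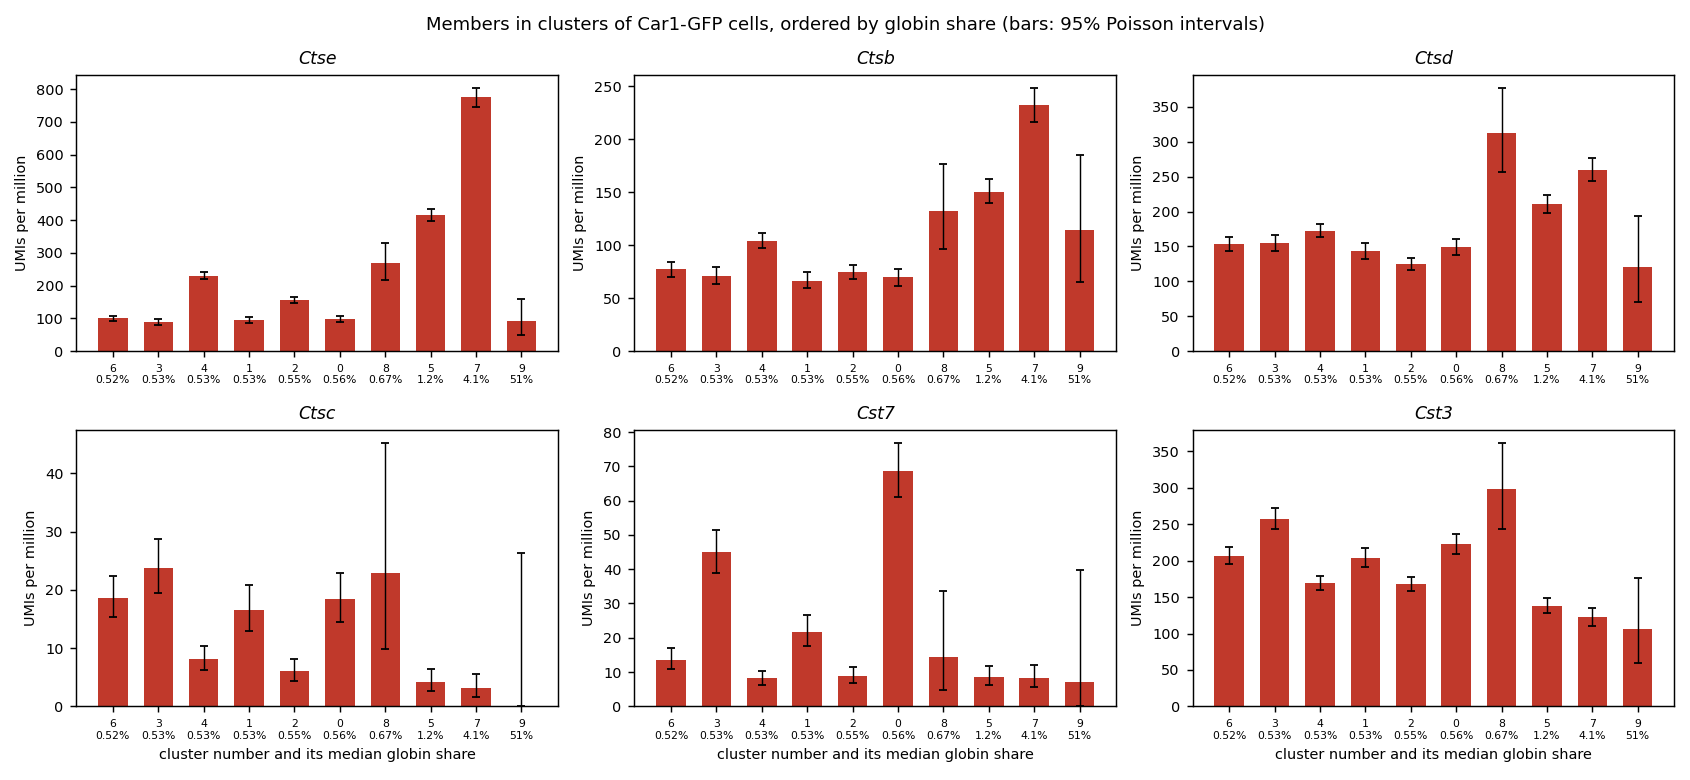
Levels of 6 members in CPM over all UMIs (bars, with 95% Poisson intervals) in clusters of at least 20 Car1-GFP cells, ordered from left to right by median globin share, which is printed under each cluster number. Cst7 is highest in cluster 0 at 68.6 CPM, and Ctse in cluster 7 at 775 CPM.

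The few Ctsh and Ctss UMIs of the Car1-GFP library were unevenly spread. The 39 Ctsh UMIs came from 20 cells, of which 1 had 7, and the 49 Ctss UMIs from 31 cells, of which 1 had 8. The 24 cells with the highest share of neutrophil and granulocyte-monocyte progenitor marker UMIs held 0.533% of all UMIs, but 16 (41.0%) of the Ctsh UMIs and 9 (18.4%) of the Ctss UMIs. They also held 55.1% of S100a8 and 62.6% of Elane UMIs. In the remaining 2376 cells Ctsh was 0.540 CPM (0.343 to 0.811) and Ctss 0.940 CPM (0.671 to 1.28). The 24 cells held 2.95% of Cst7, 2.71% of Ctsc and 0.305% of Ctse UMIs, and the levels of Cst7 and Ctsc outside them were 20.1 and 11.8 CPM.

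Other genes of the lysosome and its protease network were read from 8 lists. For these counts, 32.7% of all measured genes were at least 2-fold lower in the Car1-GFP library than in marrow and 22.2% higher, with a median of -0.23. Of 22 lysosomal glycosidases and lipid enzymes, 12 were at least 2-fold lower and 0 were higher in the Car1-GFP library than in marrow, with Galc at 0.748 and 9.75 CPM (log2 ratio -3.71) and Asah1 at 8.90 and 77.4 CPM (-3.12). Of 15 lysosomal membrane and helper proteins, 11 were lower and 0 higher: the macrophage marker Cd68 was 1.0 and 43.5 CPM (-5.44), and the saposin precursor Psap 63.1 and 927 CPM (-3.88). Of the proton pump that acidifies lysosomes, the V-ATPase, 3 of 15 subunits were lower and 0 higher, with a median of -0.53; that share of lower genes was below the one over all genes. Of 9 genes of enzyme delivery and transcriptional control, 5 were lower and 1 higher. Tfec, a relative of TFEB, was 0.140 and 18.4 CPM (-7.04), and Tfeb 1.22 and 14.6 CPM (-3.58).

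The lists of partners and substrates of single members are read against the same shares over all genes. Of 7 partners of cathepsin S in antigen presentation, 6 were lower and 0 higher, with the invariant chain gene Cd74 at 0.187 CPM in Car1-GFP cells and 535 CPM in marrow cells (-11.48). Of 7 measured serine proteases that cathepsin C activates, 6 were lower and 1 higher, with Elane at 18.3 and 1135 CPM (-5.96) and Prtn3 at 17.6 and 805 CPM (-5.52). Of 6 other cathepsins, 4 were lower, with Lgmn at 0.304 and 17.3 CPM (-5.84), and 1 was higher, Ctsf, at 2.03 CPM in Car1-GFP cells and 0.361 CPM in marrow cells on 3 UMIs. The 3 measured other cysteine protease inhibitors were all lower. Among them Cstb was 57.6 and 138 CPM (-1.26), while the stefins Stfa1 and Stfa2l1 belong to a family of near-identical copies whose counts are uncertain.

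Against erythroid-like marrow cells, where 27.4% of all measured genes were lower, 12.5% higher and the median was -0.29, the same lists gave other counts. Of 22 glycosidases and lipid enzymes, 5 were lower in Car1-GFP cells and 1 higher, with a median of 0.10, and of 15 V-ATPase subunits 4 were lower and 0 higher, with a median of 0.16. For both lists the share of lower genes was near that over all genes. Of 15 membrane and helper proteins, 6 were lower and 2 higher, with a median of -0.72 and Psap at 63.1 and 231 CPM (-1.87). Of 8 delivery and control genes, 5 were lower and 1 higher, and of 6 serine proteases, 4 were lower and 2 higher. Of 6 antigen presentation partners, 3 were lower and 1 was higher, H2-DMa, at 55.7 and 18.0 CPM (1.63). Of 4 other cathepsins, 1 was lower and 0 higher, and the 1 measured inhibitor, Cstb, lay within 2-fold.

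Along globin share in Car1-GFP cells, where 6.24% of all measured genes were higher and 14.7% lower, 3 of 15 V-ATPase subunits were at least 2-fold higher at 3 to 10% than at 0.3 to 1% and 0 were lower, with a median of 0.37 against -0.18 over all genes. They were Atp6ap1 at 78.9 and 36.4 CPM (1.12), Atp6v0a1 at 23.9 and 11.2 (1.09) and Atp6v0d1 at 94.1 and 46.4 (1.02). Of 22 glycosidases and lipid enzymes, 0 were higher and 5 lower, with the acid lipase gene Lipa at 2.75 and 17.4 CPM (-2.66), a share of lower genes near that over all genes. Of 15 membrane and helper proteins, 1 was higher, the cystine carrier gene Ctns at 6.43 and 2.91 CPM (1.14), and 3 were lower, Laptm5, Cd63 and Gm2a, also near the share over all genes. Of 6 measured serine proteases, 5 were lower, among them Prtn3 (6.43 and 19.8 CPM, -1.62), and 1, Mcpt8, was higher on 3 UMIs. Of 3 antigen presentation partners, 1 was lower, H2-DMa, and of 8 delivery and control genes, 2 were lower, Tfeb and Igf2r, on 1 and 4 UMIs in the high cells. Of 4 other cathepsins, 1 was higher, Ctsf at 5.51 and 1.73 CPM (1.67), and 1 lower, Ctsg at 4.13 and 12.5 CPM (-1.60).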

How the data were processed

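The deposited files hold UMI counts per gene and cell barcode from 10x Genomics 3' v2 libraries, per the labels' protocols. The submitters' processing notes name Cell Ranger 2.1, Seurat 2 and the build mm10, and the counts deposited by the authors are whole numbers, not normalised. The design text gives 10000 sorted cells loaded.

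Barcodes with under 500 UMIs or at least 10% mitochondrial UMIs were left out, 122 of 2522 in the Car1-GFP library and 19 of 6458 in marrow. The lowest barcode of the Car1-GFP files held 4697 UMIs and that of marrow 593. Scrublet in scanpy called 171 marrow doublets (2.66%), now left out, but just 9 among Car1-GFP cells (0.375%), too few for a working caller, and these stayed in. Each library was clustered alone (scanpy 1.11.5, 2000 variable genes, 30 components, 15 neighbours, Leiden resolution 1), without 110 genes, the members among them. A cluster took a class name when at least 3 markers were 2-fold higher and no other class had more markers among its top 10 genes.

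Counts were summed over cells and divided by totals (CPM). Intervals are 95% exact Poisson for levels and exact binomial for ratios. A floor of 3 counts, 0.0701 CPM in Car1-GFP and 0.361 CPM in marrow cells, stood for a count of 0. A gene was measured if both sides together held 20 UMIs or more, and 2-fold was the size counted. Ratios were tested on simulated data. Gene positions come from GENCODE M21, which held 27645 of 27998 identifiers; 1 of 12 listed serine protease genes, Azu1, was not in the gene table. All members were named, with the 2 genes most alike to each and up to 4 genes of each list by size of ratio. The members, lists and markers were chosen with earlier results of these data known. Alternatives changed filters, doublets, clustering, scaling (edgeR 4.0.16 TMM, DESeq2 1.42.0 size factors), weighting, bins and depth.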

Additional observations from a re-analysis of the deposited data

How the results depend on the processing

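Of 347 member values under alternative settings, 273 stayed inside the interval of the value reported, 73 moved outside it and 1, past 2-fold as reported, turned its sign, and of 72 counts 62 stayed within 1.5 times. That value was Cst7 against erythroid-like marrow cells, -0.49 within the same ranges of globin share. It rests on 2 marrow UMIs in each range that gave a ratio, and the intervals there held 0. Among values under 2-fold, the sign of Ctsl between the libraries turned in 3 of 9 settings, to at most 0.84, and against erythroid-like cells that of Ctsb turned in 3 of 11, to -0.35 at the lowest, and that of Ctse in 2 of 11, to -0.48 at the lowest. The highest marrow class was the same for 5 of 10 members when cells needed 1000 UMIs and for 6 with doublets kept, and in both settings the class named macrophage-like held other cells, 84 and 81 in place of 27. The conventional dendritic-like class was not found in 4 of the settings, in which Cst3 was highest in monocyte-like cells. Ctse, Ctsl, Ctsh and Cst7 kept their highest class in all 9 settings. Between the libraries, 2 members were higher with TMM and 2 with DESeq2 scaling, against 1. Against erythroid-like cells, 3 were higher with TMM scaling, chosen after seeing the data, and 0 were higher and 4 lower in the same ranges of globin share, against 1 and 2. Along globin share, 1 member was lower with 5 bins of equal cell number, 1 with cells thinned to 4000 UMIs and 1 without the 24 cells richest in granulocyte markers, against 2. The causes were not tested. Across alternatives the Ctse ratio along globin share ran between 2.16 and 2.61 and that of Ctsb between 1.24 and 1.75. No paired analysis was possible because there was 1 library per group, and no replicate could be left out for the same reason. Depth limits what small marrow classes show: the macrophage-like class held 34551 UMIs, and its 0 UMIs of Ctsl and Ctse have an upper Poisson bound of 107 CPM.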
